A study of Homo sapiens with 4 samples.

Results

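The regions described here are the MIR205HG ChIRP peaks that 2 replicates shared and whose summit lay at a protein-coding promoter. They were chosen by measured values: a replicate 3 peak had to overlap a replicate 2 peak by at least 1 bp, and its summit, the point of highest signal, had to lie no more than 1500 bp before or 500 bp after the transcription start site (TSS) of a protein_coding transcript. Of 8133 shared peaks on chromosomes 1 to 22 and X, 292 met the rule. This was 3.59% of the shared peaks (95% exact interval 3.20 to 4.02%), and 17054 peaks were listed for replicate 3 in all. The nearest TSS was assigned to each peak, which gave 251 genes, or 1.27% of the 19748 protein-coding genes of the annotation. For 15 peaks the summit lay in windows of 2 or more genes, and 265 genes had a summit in any of their windows.

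RWPE-1 cells are immortalized but non-tumour human cells of the basal prostate epithelium. The cells, for which the labels name no treatment, were crosslinked, and 1 pool of biotinylated antisense probes against the long noncoding RNA MIR205HG (also named LEADR) was used in 3 replicate pull-downs, whereas a pool against bacterial lacZ RNA gave 1 control library. The lacZ library was sequenced once, and all 3 peak lists were called against it, so its own spread is not known. No condition was varied, and the 3 replicates are of a single cell line.

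A promoter is the stretch around a TSS at which RNA polymerase and transcription factors assemble, and many human promoters lie in CpG islands, stretches rich in the CG dinucleotide. A gene often has several annotated TSSs, so that the window of an alternative TSS can fall inside an intron of a longer transcript. ChIRP recovers the DNA that is crosslinked near an RNA, and Alu elements, the most numerous short repeats of the human genome, occur both in the MIR205HG transcript and next to many genes.

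Sequences of 200 bp around the summit are shown on GRCh37 (the coordinates of hg19) for promoter peaks that replicate 1 also overlapped and that had no Alu, since that list took no part in choosing them, and for summits near a TSS that met CpG-island criteria. The stretch of the MIR205HG transcript that recurs across the genome as an Alu spans bases 178 to 399 of the 1007 nt transcript ENST00000429156.6_2 and has 222 nt. An alignment of at least 100 bp to this stretch, found with blastn within the replicate 3 peak, was counted as an Alu.

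The first windows have no Alu alignment. ANGEL1 is at chr14:77279771-77279970 on the minus strand and INVS at chr9:102860293-102860492 on the plus strand, the direction of each gene. Capitals mark CG dinucleotides, of which the ANGEL1 window has 0 and the INVS window 3.

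ANGEL1: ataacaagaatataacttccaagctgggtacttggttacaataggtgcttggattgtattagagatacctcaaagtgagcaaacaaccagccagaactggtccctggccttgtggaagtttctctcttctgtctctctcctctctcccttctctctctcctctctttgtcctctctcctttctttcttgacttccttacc

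INVS: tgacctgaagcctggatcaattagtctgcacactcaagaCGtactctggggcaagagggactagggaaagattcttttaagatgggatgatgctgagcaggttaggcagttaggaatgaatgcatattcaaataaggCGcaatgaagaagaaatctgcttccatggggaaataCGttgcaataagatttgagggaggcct

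The last windows met CpG-island criteria, a GC content of at least 50% and an observed-to-expected CG ratio of at least 0.6 in 300 bp around the summit. VPS50 is at chr7:92861090-92861289 on the plus strand and GATA2 at chr3:128206914-128207113 on the minus strand, again with CG in capitals. The GATA2 window holds 13 CG dinucleotides and the VPS50 window holds 9. Neither peak has an Alu alignment, unlike 12 of the 46 promoter peaks whose summit met these criteria.

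GATA2: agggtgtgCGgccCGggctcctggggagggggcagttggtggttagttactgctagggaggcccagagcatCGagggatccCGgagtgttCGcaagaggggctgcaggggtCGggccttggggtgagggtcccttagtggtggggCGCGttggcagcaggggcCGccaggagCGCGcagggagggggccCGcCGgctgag

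VPS50: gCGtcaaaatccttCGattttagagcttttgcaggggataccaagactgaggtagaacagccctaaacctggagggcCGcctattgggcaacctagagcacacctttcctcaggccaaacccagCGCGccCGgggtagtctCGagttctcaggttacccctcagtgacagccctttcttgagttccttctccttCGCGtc

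Fold enrichment, as deposited, sets the ChIRP signal at the summit against the local lacZ background, with a pseudocount of 1 added to both after scaling for depth, which lowers the fold where lacZ is low. The 292 promoter peaks had a median fold enrichment of 8.62 in replicate 3 (quartiles 6.23 and 11.9, range 2.82 to 39.4). In replicate 2 the median was 6.36 (quartiles 5.18 and 7.90, range 2.70 to 32.4). Since the rule used these lists, the values are a description and no test was made of them. Replicate 3 had the higher fold enrichment in 234 of 292 peaks (80.1%), against 74.8% of the other 7841 shared peaks. Across the promoter peaks, log2 fold enrichments of both replicates had a Pearson correlation of 0.691 and a Spearman correlation of 0.622 (n = 292 peaks called against the same lacZ library).

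**Figure D1:**
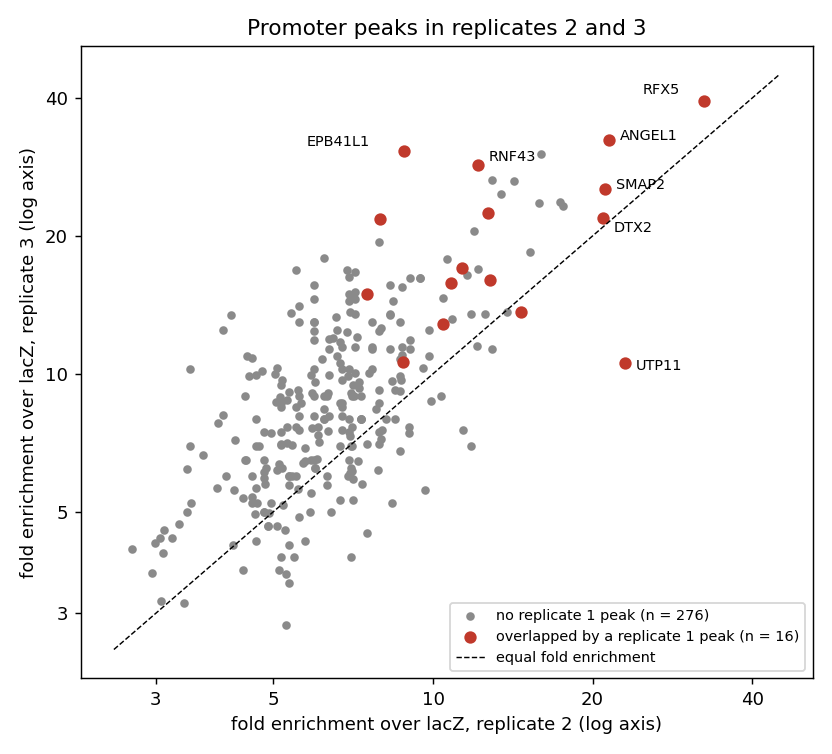
Fold enrichment over lacZ in replicate 2 (x axis) and replicate 3 (y axis), both on log axes, for the 292 promoter peaks. Red points are the 16 peaks that a replicate 1 peak overlapped, and most points lie above the dashed line of equal enrichment, with RFX5 highest in both replicates.

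The read counts behind these folds were modest. Solved from the deposited fold and p-value, the summits held a median of 21 reads in replicate 3 (range 8 to 83) and 20.5 reads in replicate 2 (range 10 to 88). The lacZ background at the same summits had medians of 1.08 and 1.09 lacZ reads, and in 61 peaks (20.9%) of replicate 3 it sat at the lowest level the caller allows, the genome-wide lacZ mean. That share was 15.9% among the other shared peaks. The summits of both replicates lay a median of 47 bp apart (95% interval of the median 39 to 60 bp), and 212 of 292 pairs (72.6%) lay within 100 bp. In 14 peaks the summits were more than 500 bp apart, among them TFEB at 1480 bp, EPB41L1 at 1322 bp and UTP11 at 1043 bp. The median width of promoter peaks in replicate 3 was 486.5 bp, against 417 bp elsewhere, and 53 (18.2%) were at least 1 kb wide, against 11.7%.

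The highest peak in both replicates was at RFX5, which encodes a subunit of the complex that switches on MHC class II genes. Its fold enrichment was 39.4 in replicate 3 (77 reads), 32.4 in replicate 2 (88 reads) and 8.78 in replicate 1 (22 reads). The replicate 3 peak spanned chr1:151317465-151320368, and its summit lay at -655 bp from the TSS of a short RFX5 transcript, within an intron of longer ones, inside an Alu alignment of 113 bp with 80.5% identity. The same base lies in an exon, from 151317762 to 151317919 on chromosome 1, that the annotation gives to RFX5 transcripts subject to nonsense-mediated decay. A second RFX5 peak, with its summit at -1114 bp from another TSS, had folds of 13.1 in replicate 3 and 10.9 in replicate 2 and no replicate 1 peak.

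The 12 promoter peaks with the highest geometric mean of both folds ranged from 21.9 to 39.4 in replicate 3 (42 to 77 reads) and from 12.2 to 32.4 in replicate 2 (30 to 88 reads). After RFX5 came ANGEL1, whose product binds the cap-binding protein eIF4E, with folds of 32.4 in replicate 3, 21.5 in replicate 2 and 10.3 in replicate 1. SMAP2, a GTPase-activating protein for Arf in membrane traffic, had folds of 25.4, 21.1 and 7.32 in the same order. These 3 peaks lay in introns.

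TLN2, the integrin-linking protein talin 2, had folds of 30.2 in replicate 3 and 16.0 in replicate 2. DTX2, a Deltex ubiquitin ligase of the Notch pathway, had 21.9 and 20.9, and 7.85 in replicate 1. RNF43, a ubiquitin ligase that removes Wnt receptors from the cell surface, had 28.6 and 12.2, and 9.87 in replicate 1. LZTS2, an inhibitor of beta-catenin in the same pathway, had 23.6 in replicate 3 and 15.9 in replicate 2. The remaining peaks of these 12 were at PAK6, a p21-activated kinase, with 23.7 and 17.4, at TFEB, the transcription factor of lysosome genes, with 23.2 and 17.6, and at PCDH1, a protocadherin, with 26.3 and 14.2. The 2 TFEB values come from summits 1480 bp apart. APBB1IP, an effector of the GTPase Rap1, had 26.4 and 12.9, and OSBPL5, a lipid transfer protein, had 24.6 and 13.4. In all 12 the replicate 3 value was above the replicate 2 value. An Alu alignment was present in 6 of the 12, and 3 met the CpG-island criteria.

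Replicate 1 had 723 peaks and was not used by the rule. Its peaks overlapped 16 of 292 promoter peaks (5.48%, 95% exact interval 3.16 to 8.75%) and 634 of the 7841 other shared peaks (8.09%), and 7.99% of all shared peaks. The odds ratio was 0.659 (95% interval 0.369 to 1.10), and the difference did not pass Fisher's exact test (two-sided p = 0.123, Benjamini-Hochberg adjusted p = 0.246 over 2 comparisons). The test treats peaks as independent and covers counting error only. Read the other way, 16 of the 723 replicate 1 peaks (2.21%) had their own summit at a protein-coding promoter, against 377 of 10765 (3.50%) in replicate 2 and 632 of 17054 (3.71%) in replicate 3, a mean of 3.14% ± 0.810 (SD, n = 3). The 15 genes so reached by replicate 1 were all among the 251.

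In the 16 overlapped peaks, the replicate 1 fold ranged from 6.38 to 11.4 with a median of 8.74, on 19 to 31 reads at the summit. Their medians were 12.4 in replicate 2 and 19.4 in replicate 3. Replicate 1 was the lowest of the 3 values in 14 of the 16, the exceptions being UTP11 and HIPK1. UTP11, a protein of ribosome biogenesis, had 11.4, 23.04 and 10.6 in replicates 1, 2 and 3. Its replicate 2 and 3 summits lay 1043 bp apart, so these folds belong to different points. HIPK1, a nuclear kinase, had 9.56, 7.51 and 14.97.

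**Figure D2:**
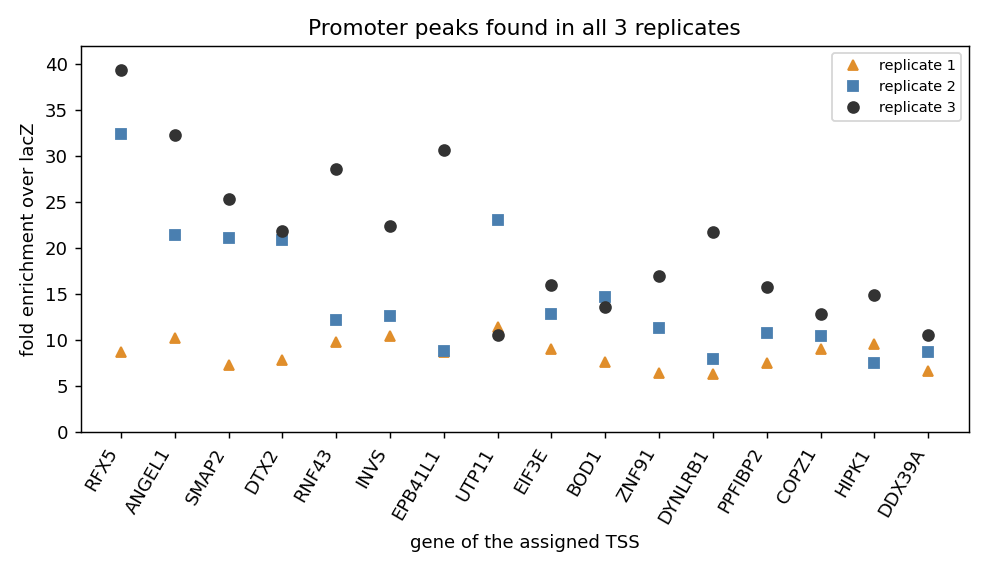
Fold enrichment over lacZ in each replicate for the 16 promoter peaks overlapped in all 3 replicates, ordered by the geometric mean of replicates 2 and 3. Replicate 1 (triangles) lies between 6.38 and 11.4 throughout, while replicate 3 (circles) ranges from 10.6 to 39.4. Folds of replicate 1 are not on the scale of the other replicates.

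Beside RFX5, ANGEL1, SMAP2, DTX2 and RNF43, these 16 covered varied functions. INVS, a protein of the primary cilium, had folds of 10.5, 12.7 and 22.4 in replicates 1, 2 and 3. EPB41L1, a membrane skeleton protein, had 8.69, 8.82 and 30.7, the widest gap between replicates 2 and 3 of the 16, in a peak of 3744 bp. ZNF91, a zinc-finger repressor of retrotransposons, had 6.50, 11.4 and 17.0. EIF3E, a subunit of translation initiation factor 3, had 9.11, 12.8 and 16.0, and BOD1, which acts in chromosome alignment, had 7.66, 14.7 and 13.6. DYNLRB1, a dynein light chain, had 6.38, 7.94 and 21.8, PPFIBP2, a liprin, 7.59, 10.8 and 15.8, COPZ1, a coatomer subunit, 9.05, 10.5 and 12.8, and DDX39A, an RNA helicase of mRNA export, 6.67, 8.79 and 10.6. The summits of replicates 2 and 3 lay 1322 bp apart at EPB41L1 and 568 bp apart at DYNLRB1. Alu alignments were present in 9 of the 16, 12 had the summit upstream of -500 bp, and 1 met the CpG-island criteria.

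Most promoter peaks did not sit on the TSS. The median summit position was -645.5 bp (quartiles -1128.5 and -19.75 bp), 224 summits lay upstream of the assigned TSS and 67 downstream, and the TSS itself fell inside the peak in 79 of 292 (27.1%). Summits upstream of -500 bp made up 162 of 292 (55.5%, 95% exact interval 49.6 to 61.3%). Of all bases in the promoter windows of the genome, assigned to TSSs in the same way, 45.4% lie there. The bin from -1250 to -1000 bp held the most peaks, 56 (19.2%, against 11.3% of the bases), whereas the bins from -250 to 0 bp and from 0 to 250 bp held 10.3% and 10.6% of peaks, against 14.8% and 15.4% of bases. No test was made of this distribution, since nearness to a TSS is part of the rule.

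**Figure D3:**
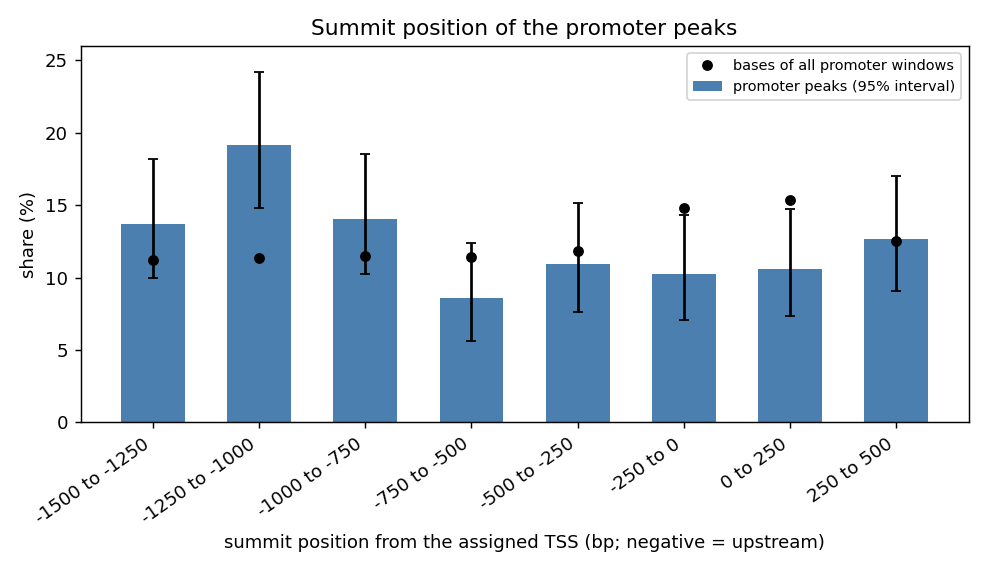
Share of the 292 promoter peaks by summit position from the assigned TSS in bins of 250 bp (bars, with 95% exact intervals), beside the share of bases of all protein-coding promoter windows in the same bins (black points). The bin from -1250 to -1000 bp holds 19.2% of peaks and 11.3% of bases.

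The windows of the rule cover 72.3 Mb, 2.55% of the 2835.7 Mb considered, so the promoter share of the shared peaks was 1.41 times the share of the sequence. The density was 4.04 promoter peaks per Mb of window and 2.84 other shared peaks per Mb outside. Replicate 3 peaks that no replicate 2 peak overlapped had their summit at a promoter in 340 of 8921 cases (3.81%, 95% exact interval 3.42 to 4.23%), at a median fold of 5.998 and 13 reads.

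The label of promoter rests largely on alternative TSSs. Of the 292 summits, 122 (41.8%, 95% exact interval 36.1 to 47.7%) lay in the window of the annotated 5′ end of a gene, and 170 lay only in windows of other TSSs, where the sequence covered is about as large (49.9% of the window bases belong to gene 5′ ends). The density was 3.38 peaks per Mb in gene 5′-end windows and 4.69 per Mb in the rest. Of the 170, 140 had the summit in an intron, against 25 of the 122. In all, 165 summits (56.5%) lay in introns of protein-coding transcripts, against 50.4% of the window bases, 83 lay outside these transcripts, 28 in an untranslated part of an exon and 16 in coding sequence. The median replicate 3 fold was 8.85 at gene 5′ ends and 8.47 at the other TSSs.

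Alu alignments occurred in 103 of 292 promoter peaks (35.3%, 95% exact interval 29.8 to 41.1%) and in 2998 of the 7841 other shared peaks (38.2%), and in 38.1% of all shared peaks. The odds ratio was 0.880 (95% interval 0.683 to 1.13), which did not pass Fisher's exact test (two-sided p = 0.326, Benjamini-Hochberg adjusted p = 0.326). With alignments of at least 50 bp, 149 of 292 promoter peaks (51.0%) had one, fewer than among the others (odds ratio 0.759, p = 0.0219 by Fisher's exact test). With at least 150 bp the direction turned, with 2 promoter peaks (0.685%) and an odds ratio of 8.999 (p = 0.0312 by Fisher's exact test). That setting rests on 2 peaks, since alignments mostly covered a part of the Alu stretch shorter than 150 bp. It does not grade Alu content. The odds ratio was also above 1 without replicate 2 (9 of 16 peaks, 2.76), without replicate 3 (7 of 15, 1.996) and at a −log10 p of at least 10 in both replicates (58 of 138, 1.01), where no difference passed the test. Alignments ran from 100 to 245 bp with a median of 114 bp and a median identity of 80.7%, and in the median they covered bases 94 to 210 of the 222 nt stretch. The Alu was antisense to the gene in 58 of the 103 peaks and in the direction of the gene in 45. The summit itself lay in the alignment in 43 peaks.

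Alu content differed with the position of the summit. The Alu content of all promoter windows by position was not measured, so a difference that holds for promoter sequence in general cannot be told apart from one of these peaks. Alignments were present in 74 of 162 peaks with the summit upstream of -500 bp (45.7%, 95% exact interval 37.8 to 53.7%) and in 29 of 130 closer to the TSS (22.3%, 15.5 to 30.4%). The share was highest from -1000 to -750 bp, at 56.1% of 41 peaks, and lowest from 0 to 250 bp, at 6.45% of 31 peaks. Folds did not order the peaks with and without an Alu in the same way. The medians in replicate 3 were 7.64 with an Alu and 8.97 without, and those in replicate 2 were 6.98 and 6.31, an opposite order in the 2 replicates.

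**Figure D4:**
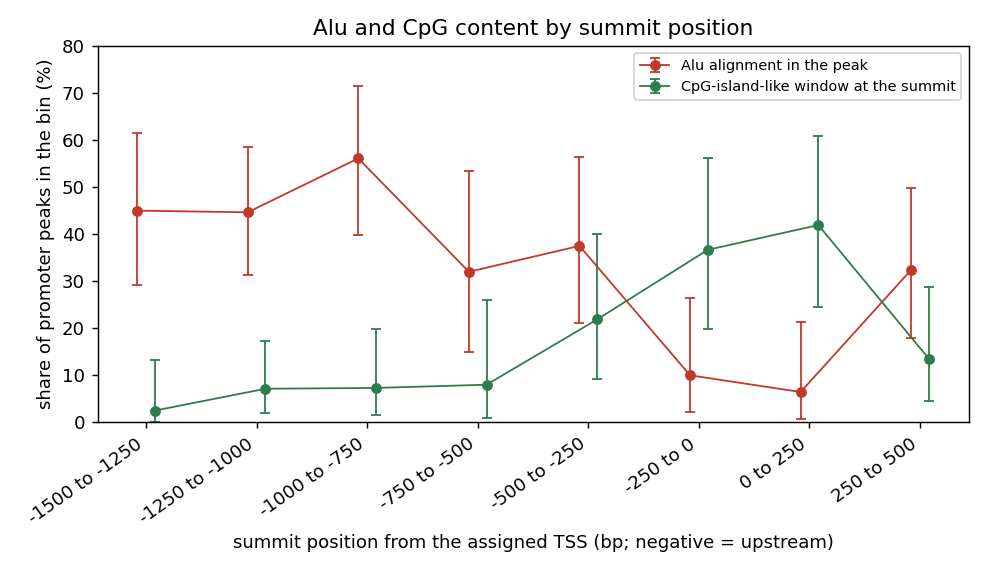
Share of promoter peaks with an Alu alignment in the peak (red) and with a CpG-island-like window of 300 bp at the summit (green), by summit position from the assigned TSS, with 95% exact intervals. Alu shares are lowest and CpG shares highest in the 2 bins next to the TSS.

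CpG-rich summits showed the opposite order. The CpG-island criteria were met by 46 of 292 promoter summits (15.8%, 95% exact interval 11.8 to 20.4%), by 36 of 130 within 500 bp of the TSS (27.7%) and by 10 of 162 further upstream (6.17%). Among other shared peaks the share was 2.46%, and among shared peaks at promoters of noncoding genes it was 7.47%. Windows of the same length centred on the 5′ ends of protein-coding genes met the criteria in 59.1% of 20095 cases, and windows 1000 bp upstream in 8.54%. The promoter summits thus lay between both references, and within 250 bp of the TSS 24 of 62 (38.7%) met the criteria. Both references cover gene 5′ ends only, and none was made for other TSSs, where 170 of the 292 summits lay. The criteria were met by 22 of these 170 (12.9%) and by 24 of the 122 in gene 5′-end windows (19.7%). Median folds of the 46 CpG-rich summits were 8.97 in replicate 3 and 6.81 in replicate 2, close to those of all promoter peaks. The 2 classes overlapped, as 12 of the 46 peaks also had an Alu alignment.

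Short motifs were searched as exact letters on both strands in 300 bp around the summit. GGGCGG, the core of GC boxes, was found at 18.8% of promoter summits, 7.40% of other shared summits and 54.1% of windows on gene 5′ ends. TATAAA was found at 8.56%, 16.4% and 9.23% in the same order. CCAAT was found at 24.0%, 26.2% and 33.7%, and CACGTG, the E-box of MYC-type factors, at 4.45%, 4.20% and 7.77%. The median GC content was 51.7% at promoter summits, 48.3% at other shared summits and 62.7% on gene 5′ ends. These are counts of letters, not of bound factors.

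A divergent promoter was counted where the TSS of another gene lay on the opposite strand within 1000 bp upstream. At the assigned TSS this was so for 36 peaks and for 34 of the 251 genes (13.5%, 95% exact interval 9.57 to 18.4%). Taken at the annotated 5′ end of each gene, for which all genes can be compared, it was 60 of 251 (23.9%, 18.8 to 29.7%), against 4548 of 19748 protein-coding genes (23.03%). For 18 peaks the partner was protein-coding, at a median gap of 140.5 bp between both TSSs, and in 3 of these the summit lay between them.

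The strongest of these pairs were INVS with ERP44 (191 bp apart), a chaperone of the early secretory pathway, and NECAB1 with TMEM64 (143 bp). The INVS summit lay at -1132 bp, past the ERP44 start and inside that gene, and NECAB1 had folds of 16.7 in replicate 3 and 7.13 in replicate 2. LYRM4 with FARS2 (302 bp), which act in mitochondrial iron-sulphur cluster assembly and mitochondrial translation, had a summit between their starts, at -66 bp from LYRM4, with folds of 14.9 and 6.95. PMPCA with ENTR1 (24 bp) had 9.71 and 8.70, and BECN1, an autophagy regulator, with PSME3 (138 bp) had 9.20 and 7.91. Of these 5 summits, 1 lay between both starts.

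Most genes had a single promoter peak, with 216 genes having 1, 30 having 2 and 5 having more. GBF1, which activates Arf GTPases at the Golgi, had 4, with replicate 3 folds of 11.95, 11.5, 7.97 and 5.23 and replicate 2 folds of 6.47, 12.1, 8.14 and 3.50. NABP2, a single-stranded DNA-binding protein of DNA repair, had 3, with 13.5, 9.46 and 6.95 in replicate 3, and the first and last of these overlapped the same replicate 2 peak. MYC, a transcription factor of cell growth, had 3 at replicate 3 folds of 12.9, 9.20 and 9.17, and the first and last of these also overlapped 1 replicate 2 peak in common. NDRG1, a stress-response gene, had 3 at 13.5, 8.09 and 8.09. NLRC5, a transactivator of MHC class I genes, had 3 at 6.23, 5.73 and 4.98. None of these 16 peaks was overlapped in replicate 1. Counting for each of the 292 peaks only the overlapping replicate 2 peak with the highest fold, there were 289 distinct ones. By this count 6 peaks shared one with a neighbour. Of the 292 peaks, 29 overlapped 2 or more replicate 2 peaks.

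Genes were also read by family, against the 1.27% of all protein-coding genes. Basal epithelial markers had 1 of 22, S100A2, a calcium-binding protein of basal cells, with folds of 7.55 in replicate 3 and 11.4 in replicate 2. Luminal markers had 0 of 19 (upper 95% bound 17.6%) and interferon response genes 0 of 42 (upper bound 8.41%). RFX5 was the 1 of 7 transcription factors of MHC class II genes. MIR205HG itself had no shared peak within 5 kb, and BNIP2 had none at its promoters. KAT6A, a histone acetyltransferase, was the 1 of 68 histone-modifying enzymes, with folds of 6.97 in replicate 3 and 7.03 in replicate 2.

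Large families stayed near the background. C2H2 zinc-finger genes named ZNF had 6 of 512 (1.17%), solute carriers 6 of 373 (1.61%) and olfactory receptors 3 of 391 (0.767%). Among zinc-finger genes, ZNF384 had a replicate 3 fold of 16.3, ZNF613 of 12.5, ZNF554 of 11.5 and ZNF888 of 6.23, beside 17.0 for ZNF91. Among carriers, the sugar transporter SLC50A1 had 9.96, SLC37A3 8.96, SLC36A3 6.97 and SLC4A8 5.98. The olfactory receptors were OR3A2 at 11.0, OR11L1 at 7.64 and OR5B3 at 6.77. The intervals of all 3 families included 1.27%.

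**Figure D5:**
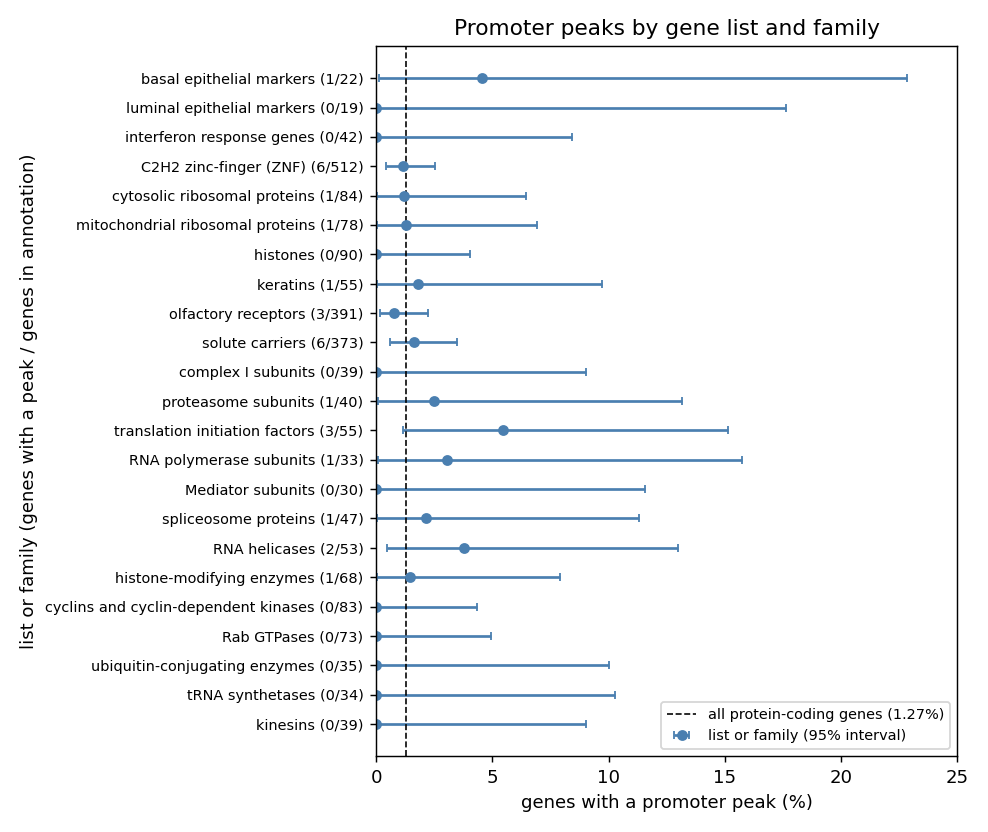
Percentage of genes with a promoter peak (points, with 95% exact intervals) in each gene list or family of at least 19 genes, beside all protein-coding genes (dashed line, 1.27%). The intervals of all 23 lists shown include the dashed line.

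Translation initiation factors had 3 of 55 (5.45%, 95% exact interval 1.14 to 15.1%), EIF3E at 16.0, EIF3I at 8.74 and EIF5 at 7.97 in replicate 3. RNA helicases had 2 of 53, DDX39A at 10.6 and DHX38, which acts in splicing, at 7.64. Cytosolic ribosomal proteins had 1 of 84, RPS3 at 9.71, and mitochondrial ribosomal proteins 1 of 78, MRPL33 at 8.96. Single genes were also found among RNA polymerase subunits (POLR2M, 11.3), spliceosome proteins (PRPF19, 11.0), proteasome subunits (PSMA7, 5.23) and keratins (KRT16, 6.48). No promoter peak was assigned to any of 90 histone genes, 83 cyclins and cyclin-dependent kinases, 73 Rab GTPases, 39 complex I subunits, 39 kinesins, 35 ubiquitin-conjugating enzymes, 34 tRNA synthetases or 30 Mediator subunits.

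Regulators of transcription were picked out of the 251 genes after their values were seen, so they carry no count or test. GATA2, a zinc-finger factor of blood and urogenital development, had folds of 15.1 in replicate 3 and 7.13 in replicate 2 at a CpG-rich summit. STAT6, which acts in interleukin signalling, had 14.03 and 5.58, and STAT4 had 11.0 and 8.73. HOXB3 had 12.9 and 5.97, at a summit that also lay in a promoter window of HOXB4. MYRF, a factor of myelin genes, had 16.9 and 12.2. PER1, a component of the circadian clock, had 2 peaks at 10.3 and 9.58 in replicate 3, and SMARCA4, the ATPase of chromatin-remodelling complexes, had 8.47 and 5.52. Each was seen in replicates 2 and 3 alone.

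The promoter share of shared peaks, 3.59% in all, differed between chromosomes. Promoter peaks made up 9.44% of the 339 shared peaks of chromosome 17 and 22 of the 275 of chromosome 19. The share was 1.31% of 382 on chromosome 6 and 0 of 94 on chromosome X. By gene, chromosome 19 was near the 1.27% of all protein-coding genes, with 20 of 1436 (1.39%). The counts were 29 of 1160 genes on chromosome 17, 5 of 1028 on chromosome 6 and 0 of 862 on chromosome X. The promoter sequence of each chromosome was not measured. Whether the peak shares follow gene density was not tested.

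At the upstream edge of the window, the members just inside were NUDT18 at -1495 bp (folds of 7.55 in replicate 3 and 6.74 in replicate 2) and ARHGAP27 at -1492 bp (10.2 and 4.76). Just outside were MAP3K14 at -1505 bp (19.6 and 12.5) and TROAP at -1510 bp (3.59 and 3.63). MAP3K14 was still among the 251 genes through another peak, with its summit at 318 bp (13.5 and 7.13). At the downstream edge, EIF3I at 500 bp (8.74 and 5.29) and SNX29 at 495 bp (7.07 and 5.31) were inside, whereas ENSG00000284797 at 507 bp (18.6 and 10.9) and EDC4 at 511 bp (11.9 and 7.90) were outside. At both edges, peaks as high as those kept lay a few bases beyond the limit. SULT1A4, NPIPB2, METTL2B and AQP12B, among the members, have near-identical copies elsewhere in the genome, and how reads with several matches were treated is not given in the sources used here.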

How the data were processed

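The series holds 3 MIR205HG ChIRP replicates and 1 lacZ library of RWPE-1 cells. Single reads were aligned by the authors to hg19 with Bowtie (1.0.1 in the submitters' processing notes, Bowtie2 in their methods), and narrow peaks were called per replicate against lacZ with MACS2 2.1.0. The deposited values are the fold enrichment (a ratio), the p-value and q-value as −log10, and a score (10 times that of the q-value, truncated). A p-value cut-off of 1e-05 is stated, but 3 promoter peaks in replicate 3 and 6 in replicate 2 exceed it. Peak names inside the lists carry other library numbers than the sample labels, which were followed here.

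Rows on other contigs and chromosome Y (11, 29 and 57 in replicates 1, 2 and 3) were left out. TSSs were taken from 89007 protein_coding transcripts of GENCODE release 44 on GRCh37. Shared peaks and nearest TSSs were computed with Python 3.11.15, pandas 2.3.3 and numpy 2.4.6, and the overlaps were checked against bedtools 2.31.1. Alu alignments were found with blastn 2.17.0. The Alu stretch is the part of the transcript with at least 1000 alignments at each base on chromosome 21. Reads at summits were solved from fold and p with 1 depth ratio per replicate (1.83, 1.39 and 1.00), which solved 100% of peaks. Total depth is not known. Shares have exact Clopper-Pearson 95% intervals, and Fisher's exact test (scipy 1.17.1) compared promoter peaks with other shared peaks at a threshold of 0.05. Intervals cover counting error only. The assignment of peaks to promoter windows, the solving of reads and Fisher's exact test were tried on simulated data, the other steps were not.

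The members, gene lists and families were chosen with earlier results of these data known. Genes named are the 12 peaks with the highest geometric mean fold, all peaks overlapped by replicate 1, at most 5 genes per list or family, RFX5, KAT6A, BNIP2 and MIR205HG, the 5 genes with most peaks, the 5 strongest protein-coding divergent pairs and the peaks at each edge of the window. Other genes (the regulators of transcription, VPS50 among the sequences, and genes with near-identical copies) were named after their values were seen. Alternatives changed thresholds, the overlap, the TSS set, the window, the summit used, the Alu length, the definition of divergent promoters and the replicates. RefSeq promoter sequences on another build were not used. Alu sequences and some items are not reported here.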

Additional observations from a re-analysis of the deposited data

How the results depend on the processing

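Of 107 values recomputed under alternatives, 74 kept their side of the threshold or stayed within the interval or 1.5 times of the reported value. These 74 include the values without replicate 1, which equal the reported ones by design, since the rule does not use replicate 1. The number of promoter peaks was 127 in 119 genes (1.56% of shared peaks) with 1 TSS per gene, and 152 in 138 genes (1.87%) from -1000 to 100 bp, and the share was 2.46% with basic transcripts. A −log10 p of at least 10 in both replicates gave 138 peaks in 126 genes (3.15%), and an overlap of at least 0.5 of both peaks gave 193 (3.01%). The share upstream of -500 bp was 65.4% with 1 TSS per gene, and that setting gave 19.3% of genes with a divergent promoter, against 7.17% with protein-coding partners only. The median replicate 3 fold was 11.0 at −log10 p of at least 10 and 9.58 at fold of at least 5. Leaving out each replicate in turn, peaks ranged from 15 to 292, genes from 14 to 251, the promoter share from 2.27 to 3.59%, the upstream share from 55.5 to 75%, the divergent share from 6.25 to 13.5%, the median fold from 8.62 to 19.4 and the Alu share from 35.3 to 56.3%, the end away from the reported value coming in each case from lists that require replicate 1, with 723 peaks. Every gene so found was among the 251. The Alu odds ratio turned above 1 without replicate 2 (56.3% of peaks, odds ratio 2.76, p = 0.0553), without replicate 3 (46.7%, 1.996, p = 0.255), at −log10 p of at least 10 (42.03%, 1.01, p = 1) and with alignments of at least 150 bp (0.685%, 2 peaks, p = 0.0312), and with 50 bp it fell to 0.759 at a share of 51.0% and passed (p = 0.0219), all by Fisher's exact test. Alignments had a median of 114 bp, so the setting of 150 bp does not grade Alu content. The replicate 1 comparison kept its direction in all 9 alternatives run, with p from 0.0507 to 0.508; it needs replicates 1 to 3, so no value without one exists. No paired analysis was possible because the MIR205HG replicates form 1 group. Counts of about 20 reads per summit and 1 lacZ library limit all values.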
